A study of Homo sapiens with 4 samples.

Results

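The receptors and ligands of the tumor necrosis factor (TNF) superfamilies were compared between LX-2 cells given a miR-6133-5p mimic and LX-2 cells given miControl, a negative control mimic. Members were the protein-coding genes whose symbols follow the TNFRSF (receptor) or TNFSF (ligand) numbering, together with *TNF*, *LTA*, *LTB*, *LTBR*, *FAS*, *FASLG*, *CD27*, *CD40*, *CD40LG*, *CD70*, *NGFR*, *EDAR*, *EDA*, *EDA2R* and *RELT*. They made up 47 of the 63677 genes counted, of which 29 were receptors and 18 were ligands. LX-2 is a human cell line derived from hepatic stellate cells, the cell type that lays down scar matrix in the injured liver, so all libraries represent the same line and not primary cells. The miR-6133-5p and miControl groups held 2 libraries each. Both mimics were delivered at 20 nM by lipofection, and every culture, miControl included, received 5 ng/mL of recombinant human TGF-β1 24 h later and was collected after 24 h of that treatment. No value here comes from cells without added TGF-β1. Nothing states that replicates came from separate cultures, so the p-values measure the spread between these libraries, which may be technical.

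TNF superfamily ligands are mostly membrane proteins that act as trimers, either on the cell surface or after being shed by proteases, and they cluster their receptors on the target cell. Death-domain receptors such as FAS and the TRAIL receptors can recruit FADD and caspase-8, whereas receptors without a death domain bind TRAF adaptors and lead mainly to NF-κB and JNK activation. Decoy and soluble receptors bind ligand without passing on a death signal. In the liver, TNF and TRAIL take part in the killing of damaged cells, and TRAIL also in that of activated stellate cells. *TNFRSF19* (TROY) is a receptor without a death domain known best from embryonic skin and the nervous system.

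The sequences that frame the comparison are given first, from RefSeq on GRCh38.p14. The hairpin of *MIR6133* lies at chr7:133290881-133290988 on the plus strand and is shown because the mimic copies a mature strand cut from it.
MIR6133 hairpin: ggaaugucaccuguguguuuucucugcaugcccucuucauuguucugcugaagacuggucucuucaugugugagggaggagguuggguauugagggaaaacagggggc
The promoter windows of the receptor and the ligand with the largest decreases are shown because these genes fell together, and their CpG content can be compared. Each window runs from 250 bases before to 50 bases after a transcription start, and capitals mark CpG dinucleotides. *TNFRSF19* has 2 listed starts on the plus strand, at chr13:23570162-23570461 and chr13:23579110-23579409, and *TNFSF4* has a window on the minus strand at chr1:173205483-173205782.
TNFRSF19 start 1: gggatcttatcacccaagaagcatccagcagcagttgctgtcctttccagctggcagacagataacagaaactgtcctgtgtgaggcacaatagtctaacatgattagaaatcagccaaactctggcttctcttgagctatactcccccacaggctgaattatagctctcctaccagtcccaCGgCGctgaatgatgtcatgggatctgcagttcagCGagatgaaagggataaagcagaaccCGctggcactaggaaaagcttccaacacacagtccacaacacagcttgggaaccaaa
TNFRSF19 start 2: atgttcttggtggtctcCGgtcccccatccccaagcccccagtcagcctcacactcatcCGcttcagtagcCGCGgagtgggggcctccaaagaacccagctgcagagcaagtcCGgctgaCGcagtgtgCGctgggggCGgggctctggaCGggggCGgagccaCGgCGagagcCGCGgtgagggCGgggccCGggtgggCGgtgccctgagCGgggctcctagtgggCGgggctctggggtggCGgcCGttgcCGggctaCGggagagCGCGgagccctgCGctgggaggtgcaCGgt
TNFSF4: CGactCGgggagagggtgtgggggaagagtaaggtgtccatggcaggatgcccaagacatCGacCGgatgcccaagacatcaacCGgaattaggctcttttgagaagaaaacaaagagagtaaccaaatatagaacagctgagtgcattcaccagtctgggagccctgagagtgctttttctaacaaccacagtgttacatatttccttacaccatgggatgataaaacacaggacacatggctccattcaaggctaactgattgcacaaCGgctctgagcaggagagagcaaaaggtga
The upstream *TNFRSF19* window held 4 CpG dinucleotides and the downstream window 27, and the *TNFSF4* window held 6. The window of *TNFRSF1B*, another receptor that fell, held 27. Over all 35116 promoter windows the median was 14, with quartiles of 4 and 28, so these windows ran from the lower quartile to just below the upper quartile. The counts do not tell which *TNFRSF19* start was used.

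In the 41 windows of the 30 members with an entry, the AP-1 motif TGANTCA, searched on both strands, was found in 9 windows, or 22%, against 7.71% of all windows. An NF-κB motif was found in 12 of the 41, or 29.3%, against 11.3% of all. Starts of the same gene can lie close together, as the *TNFSF14* windows do, so windows are not independent. The 41 windows include those of members with too few counts to test, such as *LTB* and *TNFSF14*. Among the windows of the members that fell, the downstream *TNFRSF19* window held an NF-κB match. The other windows searched (the upstream *TNFRSF19* window and those of *TNFSF4* and *TNFRSF1B*) held neither motif. No window was listed for *TNFRSF11B*, which also fell, or for *CD70*, which rose. These matches are letters in a window and not measured binding.

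Gene counts totalled 51862006 and 57903388 in the control libraries, and the treated libraries held 61747010 and 93811213. Levels are given as CPM, the counts scaled to a common library size after TMM scaling, a correction for differences in RNA composition. A single count stood for 0.0101 to 0.0203 CPM. The log2 fold change is miR-6133-5p against miControl, with its standard error (SE), and genes were tested with edgeR's quasi-likelihood test with Benjamini-Hochberg adjustment over 18252 genes. A gene was called at an adjusted p below 0.01 with a log2 fold change past 0.8 in either direction. Groups of 2 cannot give an exact permutation p below 0.333, so single genes rest on this model. Over every tested gene the median was 0.03 on the log2 scale, and it became 0.19 when library totals replaced TMM. Of the stellate markers chosen, 8 of 11 were abundant enough to be tested, while *DES* had at most 2 counts and *LRAT* at most 7 in any library. Among the stellate markers *COL1A1* fell (-1.46, edgeR adjusted p = 8.88e-07), as did *ACTA2* (-1.95, adjusted p = 2.1e-07) and *COL1A2* (-1.11, adjusted p = 4.34e-06). *COL3A1* (-0.44, adjusted p = 0.00486) and *SPARC* (-0.40, adjusted p = 0.00784) were lower by less than the fold threshold. *TIMP1* was at 0.42 (adjusted p = 0.0134), *VIM* at -0.02 and *PDGFRB* at 0.04. The stellate markers summed to 9116.1 and 8545.6 CPM in miControl and to 6351.1 and 5727.5 CPM in miR-6133-5p. Per library the hepatocyte markers summed to 2.05 to 2.81 CPM, the endothelial to 0.294 to 0.827 CPM and the epithelial to 0.0813 to 0.242 CPM.

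Of the 47 members, 33 had enough counts to be tested, namely 23 receptors and 10 ligands. *TNFRSF19*, *TNFSF4*, *TNFRSF11B* and *TNFRSF1B* fell and *CD70* rose in the miR-6133-5p-treated cells. These were 4 of 33 members called lower (12.1%), beside 5.54% of all tested genes, and 1 of 33 called higher (3.03%), beside 2.9% of all. Over all genes 1011 were called lower and 529 higher, or 709 and 977 with library totals. At an adjusted p below 0.05 without a fold threshold, 7 members were lower (21.2%) and 8 were higher (24.2%), beside 16.1% and 14.1% of all tested genes. The groups did not overlap for 23 members (69.7%), beside 64.4% of all tested genes. The median log2 fold change of the members was 0.06, with a range from -1.92 to 2.34, and 0.23 with library totals. It was 0.40 for the 23 receptors and -0.08 for the 10 ligands. In bulk RNA, fewer cells carrying a transcript cannot be told apart from less transcript per cell.

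**Figure D1:**
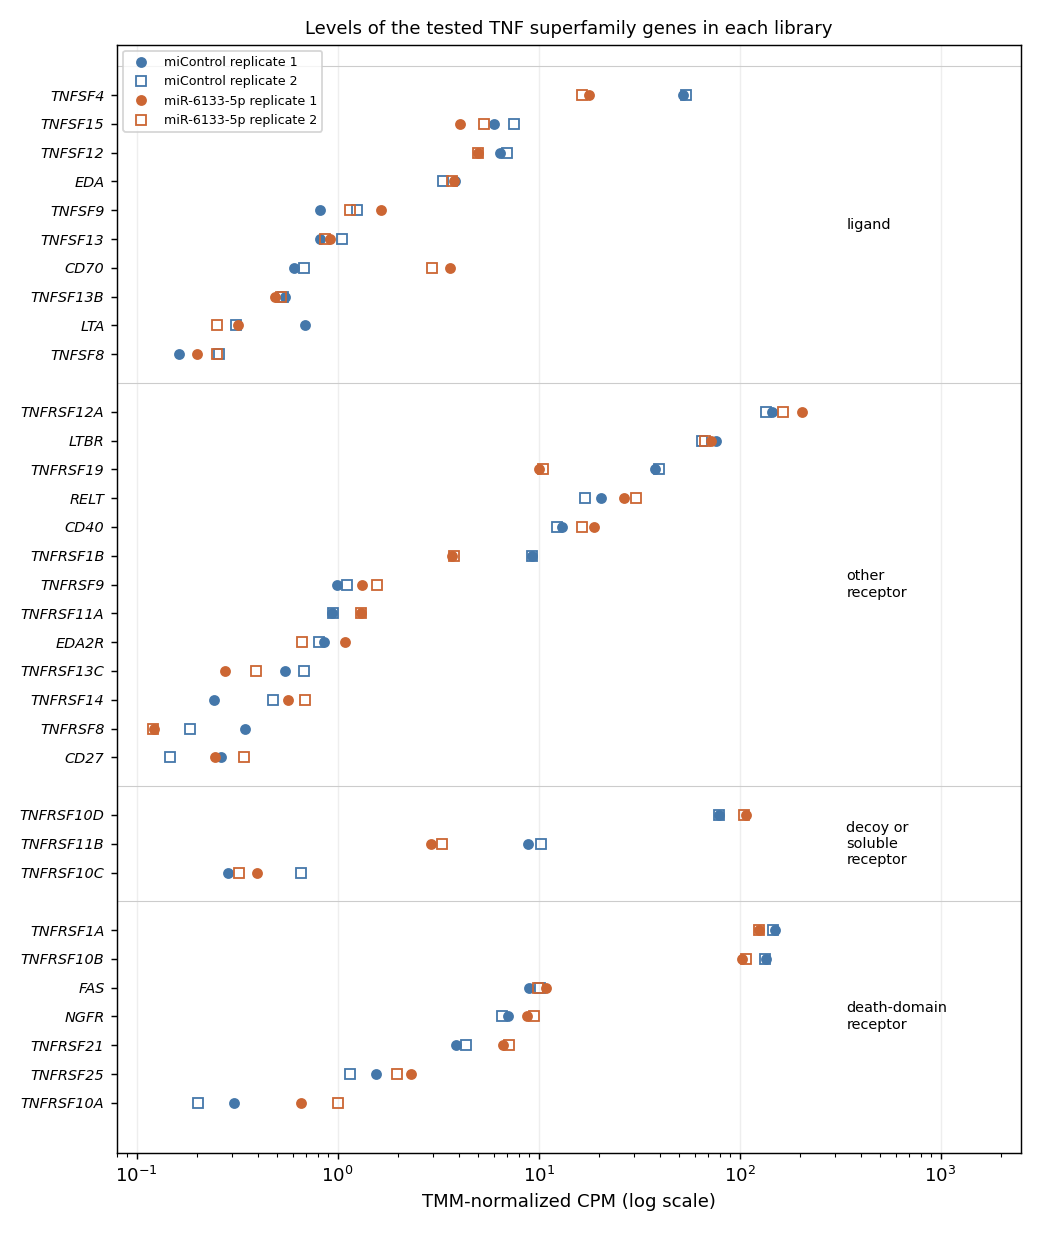
TMM-normalized CPM on a log axis for the 33 tested members in each of the 4 libraries, by role. Filled circles are replicate 1 and open squares replicate 2; the miR-6133-5p libraries lie left of both miControl libraries for *TNFRSF19* (10.01 and 10.5 against 38.1 and 39.9 CPM) and right of them for *CD70*.

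*TNFRSF19* (ENSG00000127863; GRCh37 chr13:24144509-24250243) was the member with the largest decrease. It measured 38.1 and 39.9 CPM in the miControl libraries and 10.01 and 10.5 CPM in the miR-6133-5p libraries. The replicates lay close together, and both treated libraries were far below both controls. The mean went from 39.0 ± 1.27 to 10.3 ± 0.369 CPM (SD, n = 2), a log2 fold change of -1.92 (SE 0.113, edgeR adjusted p = 1.16e-07), or a change of -73.6%. With any of the 4 libraries left out the value stayed between -1.98 and -1.90. Per kilobase of exon its level went from 7.63 to 2.01 CPM, and the annotation places no other counted gene on its exons.

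*TNFRSF1B* (ENSG00000028137; chr1:12227048-12269285), which encodes TNF receptor 2, the TNF receptor without a death domain, was the other receptor of this class that fell. It measured 9.23 and 9.23 CPM in miControl and 3.73 and 3.78 CPM in miR-6133-5p. The groups were well apart, with a log2 fold change of -1.30 (SE 0.145, edgeR adjusted p = 2.11e-05). The call was lost when the fold threshold was built into the test with glmTreat (adjusted p = 0.0177).

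Several receptors without a death domain lay higher without reaching the fold threshold. *RELT*, a receptor of lymphoid tissue, measured 20.4 and 17.1 CPM in miControl against 26.6 and 30.6 CPM in miR-6133-5p (log2 fold change 0.61, SE 0.125, edgeR adjusted p = 0.00242). *CD40*, the receptor through which T cells stimulate B cells and other antigen-presenting cells, measured 13.1 and 12.3 CPM against 18.8 and 16.5 CPM (0.47, SE 0.123, adjusted p = 0.0112). *TNFRSF12A*, which encodes the TWEAK receptor Fn14, measured 145 and 135 CPM against 205 and 165 CPM (0.40, SE 0.119, adjusted p = 0.0218). In all 3 genes both treated libraries were above both controls. With a library left out, the log2 fold change ran from 0.46 to 0.73 for *RELT* and from 0.36 to 0.55 for *CD40*. For *TNFRSF12A* it ran from 0.22 to 0.53. For *LTBR*, the lymphotoxin-β receptor, the log2 fold change was -0.02 with overlapping groups, and it became 0.14 with library totals. The remaining tested receptors of this class had under 2 CPM in every library and adjusted p-values above 0.05. *TNFRSF14* (HVEM) had a log2 fold change of 0.79, *CD27* 0.54, *TNFRSF11A* (RANK) 0.47, *TNFRSF9* 0.45, *EDA2R* 0.06, *TNFRSF13C* (the BAFF receptor) -0.86 and *TNFRSF8* -1.10. Exons of *CD27* were shared over 42.5% of their length with an antisense gene, and whether the counting used strand is not given.

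**Figure D2:**
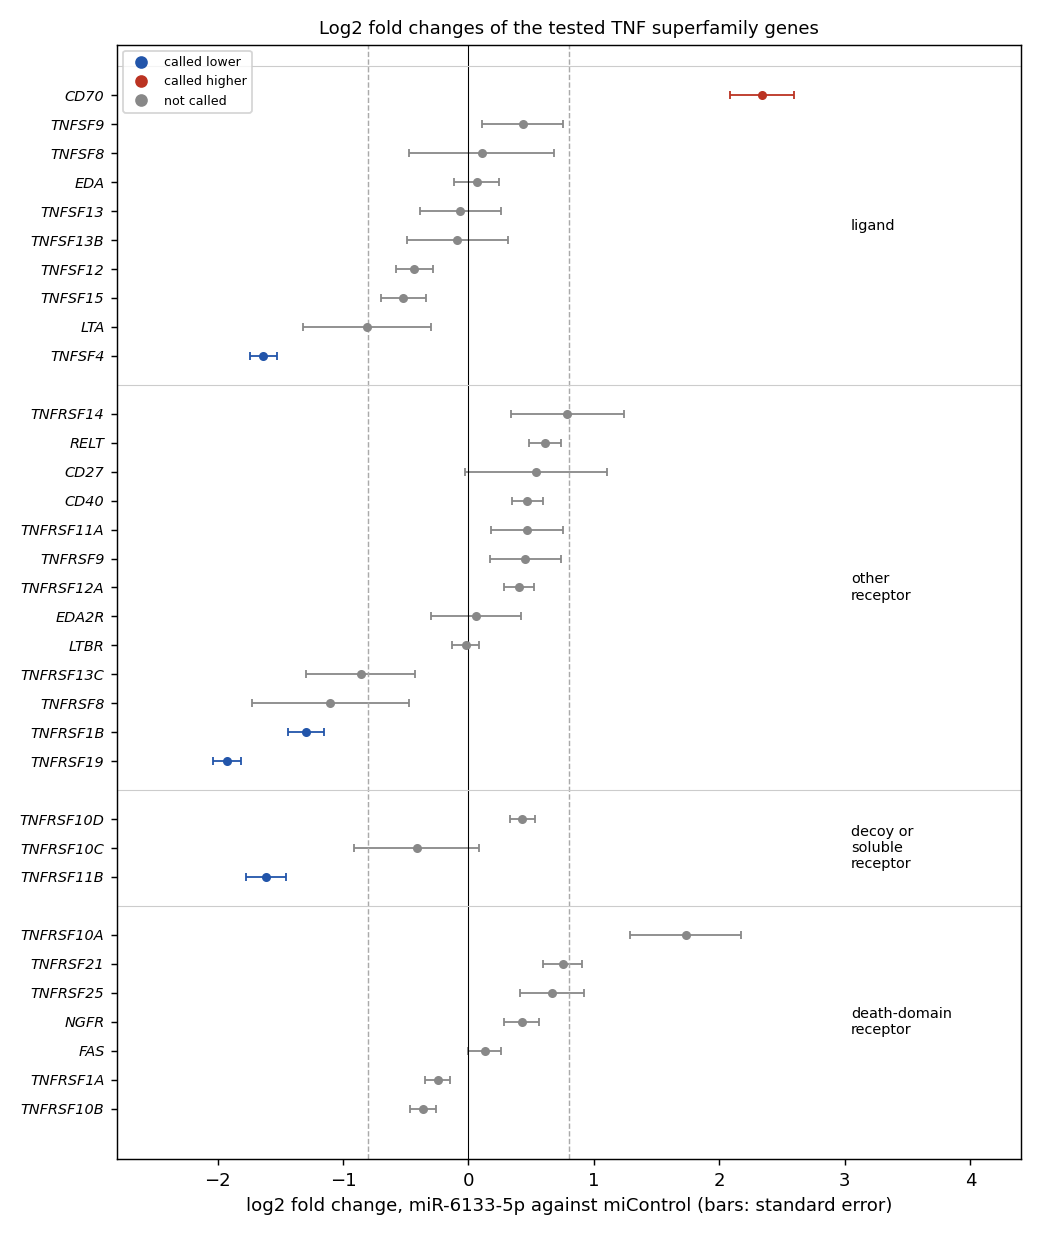
Log2 fold changes of the 33 tested members, miR-6133-5p against miControl, with standard errors as bars, by role; dashed lines mark 0.8 in either direction. The 4 members called lower lie between -1.92 and -1.30, *CD70* stands at 2.34, and no death-domain receptor was called.

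None of the 7 tested death-domain receptors was called by edgeR or by DESeq2, beside the 5.54% lower and 2.9% higher of all genes, shares at which 0 of 7 says nothing particular about these receptors. An unadjusted edgeR p below 0.05 was reached by 6 of the 7, beside 40.3% of all tested genes. At an adjusted p below 0.05, *TNFRSF10B* was lower and *TNFRSF10A*, *TNFRSF21* and *NGFR* were higher. These were 14.3% lower and 42.9% higher of the 7, beside 16.1% and 14.1% of all tested genes. The median log2 fold change of the class was 0.42.

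The most abundant death-domain receptors were *TNFRSF1A* and *TNFRSF10B*. *TNFRSF1A*, TNF receptor 1, measured 151 and 146 CPM in miControl and 125 and 125 CPM in miR-6133-5p (log2 fold change -0.24, SE 0.100, edgeR adjusted p = 0.0831), and with library totals its value was -0.08 (adjusted p = 0.569). *TNFRSF10B*, the TRAIL receptor DR5, measured 136 and 134 CPM against 103 and 107 CPM (-0.36, SE 0.100, adjusted p = 0.0152), and with library totals its value was -0.20 (adjusted p = 0.145). Both treated libraries were below both controls for each of these genes, by less than the fold threshold.

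The other death-domain receptors were expressed at lower levels. *TNFRSF10A*, the TRAIL receptor DR4, measured 0.305 and 0.202 CPM in miControl and 0.657 and 1.01 CPM in miR-6133-5p. These were 15, 11, 43 and 100 counts, and the groups did not overlap. Its log2 fold change of 1.73 (SE 0.445) had an edgeR adjusted p of 0.0101, just past the limit, and over the alternatives this p ran from 0.000357 to 0.198. It was called when library totals, no filter on low counts, a minimum of 10 counts, a replicate block or an adjusted p of 0.05 was used, and without miR-6133-5p replicate 1. Antisense genes cover 16.7% of its exon length. *TNFRSF21* (DR6) measured 3.86 and 4.33 CPM against 6.68 and 7.13 CPM (0.75, SE 0.156, adjusted p = 0.00253), with the treated libraries both higher, and it passed the fold threshold with library totals (0.92). *NGFR*, the low-affinity neurotrophin receptor, which marks stellate cells in liver, measured 7.01 and 6.61 CPM against 8.74 and 9.51 CPM (0.42, SE 0.137, adjusted p = 0.0327), again without overlap.

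*FAS*, the receptor of FAS ligand, measured 8.93 and 10.1 CPM in miControl and 10.9 and 9.96 CPM in miR-6133-5p (log2 fold change 0.13, SE 0.133, edgeR adjusted p = 0.517). The groups overlapped, and 10.7% of its exon length lies opposite exons of *ACTA2*, the gene of smooth muscle actin. *TNFRSF25* (DR3), the receptor of the *TNFSF15* product, measured 1.55 and 1.16 CPM against 2.32 and 1.98 CPM (0.67, SE 0.255, adjusted p = 0.0642). *EDAR*, the ectodysplasin receptor, had 9 and 2 counts against 2 and 14 and was not tested.

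The decoy and soluble receptors went in different directions. *TNFRSF11B* (ENSG00000164761; chr8:119935796-119964124) encodes osteoprotegerin, a secreted receptor that captures RANK ligand and TRAIL. It measured 8.84 and 10.3 CPM in miControl and 2.92 and 3.31 CPM in miR-6133-5p. Both treated libraries were clearly lower, with a log2 fold change of -1.61 (SE 0.158, edgeR adjusted p = 6.87e-06). *TNFRSF10D*, a TRAIL receptor whose death domain is truncated, measured 79.2 and 79.1 CPM against 108 and 105 CPM (0.43, SE 0.0996, adjusted p = 0.00553), higher in both treated libraries and under the fold threshold. *TNFRSF10C*, a TRAIL decoy anchored to the membrane by a lipid, had overlapping groups and a log2 fold change of -0.41 (adjusted p = 0.588). *TNFRSF6B* (decoy receptor 3) was listed at 0 in every library, but all of its exons are shared with a readthrough gene, so the 0 cannot be read as absence.

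Among the ligands, *TNFSF4* (ENSG00000117586; chr1:173152870-173176470), the OX40 ligand that costimulates T cells, was the most abundant per kilobase in miControl at 13.4 CPM. It measured 52.2 and 54.2 CPM in miControl and 17.8 and 16.5 CPM in miR-6133-5p. The mean went from 53.2 ± 1.40 to 17.1 ± 0.913 CPM (SD, n = 2), far beyond the replicate spread, with a log2 fold change of -1.64 (SE 0.108, edgeR adjusted p = 2.76e-07). *TNFSF15* (TL1A) measured 5.98 and 7.54 CPM against 4.07 and 5.32 CPM (-0.52, SE 0.179, adjusted p = 0.0426), and *TNFSF12* (TWEAK) measured 6.44 and 6.95 CPM against 4.97 and 4.98 CPM (-0.43, SE 0.149, adjusted p = 0.0438). Both lay lower in both treated libraries but under the fold threshold, with library-total adjusted p-values of 0.138 and 0.187, and 12.1% of the *TNFSF12* exons are shared with the readthrough gene *TNFSF12-TNFSF13*.

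*CD70* (ENSG00000125726; chr19:6583194-6604114), the ligand of *CD27* best known from activated lymphocytes, was the only member called higher. It measured 0.610 and 0.679 CPM in miControl and 3.61 and 2.95 CPM in miR-6133-5p, from 30, 37, 236 and 293 counts. The treated libraries were about 5.06 times the controls (log2 fold change 2.34, SE 0.256, edgeR adjusted p = 1.71e-05), and the value ran from 2.17 to 2.46 with a library left out. The 5 leukocyte markers chosen (*PTPRC*, *CD3E*, *CD79A*, *CD14* and *ITGAM*) summed to 1.95 and 1.25 CPM in miControl and to 2.40 and 2.45 CPM in miR-6133-5p, and *CD3E* was at 0 in every library. Of the sums in miR-6133-5p, *CD14* alone made up 1.85 and 1.97 CPM. Levels of different genes cannot show which cells the *CD70* transcripts came from. The part of these markers in the result was not tested.

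The other tested ligands had adjusted p-values above 0.05. *TNFSF9* (the ligand of the *TNFRSF9* product) had a log2 fold change of 0.43, *TNFSF8* (CD30 ligand) 0.11, *EDA* (ectodysplasin) 0.06 and *LTA* (lymphotoxin-α) -0.81. The *LTA* value rested on 17 to 34 counts per library and was -0.14 without miControl replicate 1 and -1.31 without miControl replicate 2. *TNFSF13* (APRIL) and *TNFSF13B* (BAFF) stood at -0.06 and -0.09, and at 0.10 and 0.07 with library totals. Exons of *TNFSF13* are shared over 55.5% of their length with other genes.

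Several ligands of death-domain receptors had only a few counts. *TNF* had 0 and 0 counts in miControl and 2 and 4 in miR-6133-5p, *TNFSF10* (TRAIL) had 6 and 6 against 4 and 8, and *FASLG* had 0 and 2 against 0 and 2. Among the other ligands with too few counts to test, *LTB* had 1 to 10 counts, *TNFSF14* (LIGHT) 0 to 2 and *TNFSF18* (GITR ligand) 2 to 12 per library, while *CD40LG* and *TNFSF11* (RANK ligand) had 0 in all. Among the receptors, *TNFRSF4* (OX40, the receptor of the *TNFSF4* product) had 0 to 6 counts, *TNFRSF18* (GITR) 0 to 7 and *TNFRSF17* (BCMA) 0 to 2, and *TNFRSF13B* (TACI) had 0 in every library. If each count were an independent fragment, a count of 0 would allow up to 3 counts, or 0.0302 to 0.0610 CPM in these libraries. A fragment can give more than 1 count here, so the limit lies higher, and it covers counting error only.

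Per kilobase of exon, *TNFRSF12A* was the most abundant member in both groups, with mean CPM per kb of 77.6 in miControl and 103 in miR-6133-5p. In miControl it was followed by *TNFRSF1A* (35.3), *TNFRSF10B* (27.0), *TNFRSF10D* (22.4), *TNFSF4* (13.4), *LTBR* (11.5) and *TNFRSF19* (7.63). In miR-6133-5p the order was *TNFRSF10D* (30.1), *TNFRSF1A* (29.8), *TNFRSF10B* (21.0), *LTBR* (11.4), *RELT* (4.62) and *TNFSF4* (4.33). *TNFRSF10D* and *TNFRSF1A* differed there by less than the spread between the *TNFRSF10D* replicates. *TNFRSF19* was at 2.01, below *CD40* (3.14), *FAS* (2.93) and *CD70* (2.14).

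Ratios taken within a library do not depend on scaling between libraries, and 5 pairs were examined, chosen after single-gene values were known. The decoy *TNFRSF10D* over the death receptor *TNFRSF10B*, both receptors of TRAIL, was 0.825 and 0.836 in miControl and 1.49 and 1.39 in miR-6133-5p. Per kilobase of exon, the truncated receptor was thus the less abundant of the pair in both controls and the more abundant in both treated libraries. The order in the treated libraries rests on the annotated exon lengths. In CPM, *TNFRSF10D* measured 108 and 105 there, against 103 and 107 for *TNFRSF10B*. *TNFRSF1B* over *TNFRSF1A*, the 2 receptors of TNF, was 0.0681 and 0.0704 against 0.0332 and 0.0335. *TNFRSF11B* over *TNFRSF11A*, the soluble and the signalling receptor of RANK ligand, was 33.8 and 38.5 against 7.95 and 9.10. *TNFRSF12A* over its ligand gene *TNFSF12* was 57.0 and 49.1 against 104 and 83.8, and *CD70* over *TNFSF9*, its neighbour on chromosome 19, was 0.801 and 0.581 against 2.33 and 2.72. No pair overlapped between groups, but this carries no weight, because the pairs were chosen after the single-gene values were known. In 3 pairs (*TNFRSF10D* over *TNFRSF10B*, *TNFRSF11B* over *TNFRSF11A* and *TNFRSF12A* over *TNFSF12*) the genes already lay apart in opposite directions. Their ratios could therefore not overlap. No test was made on the ratios.

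**Figure D3:**
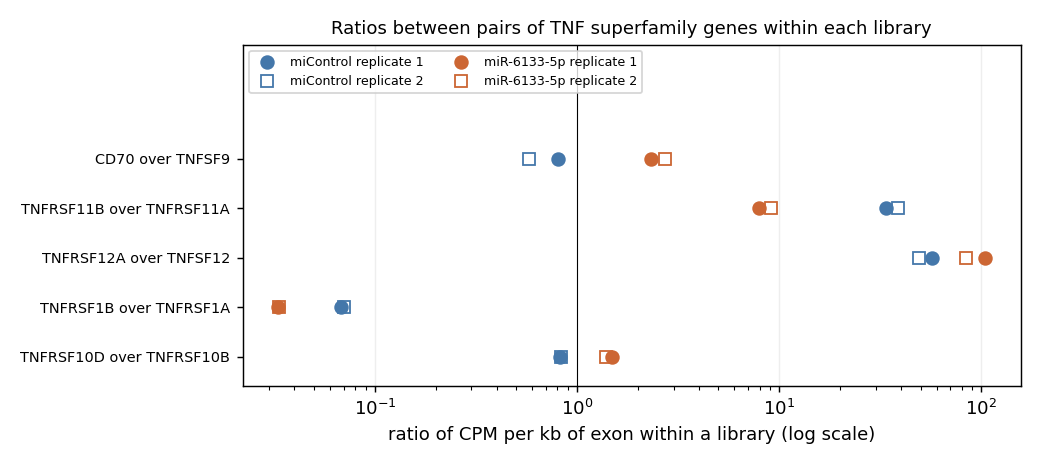
Ratio of CPM per kilobase of exon between 5 pairs of members within each library, on a log axis; circles are replicate 1 and squares replicate 2. *TNFRSF10D* over *TNFRSF10B* lies at 0.825 and 0.836 in miControl and at 1.49 and 1.39 in miR-6133-5p.

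Many members sit in tandem, and 24 of the 47 lie within 1000000 bases of another member, in 9 clusters on GRCh37. In the TRAIL receptor cluster (chr8:22877646-23082615) the log2 fold changes were -0.36 for *TNFRSF10B*, -0.41 for *TNFRSF10C*, 0.43 for *TNFRSF10D* and 1.73 for *TNFRSF10A*, so neighbours lay on both sides of 0. Next to *TNFSF4*, *TNFSF18* and *FASLG* had too few counts to test. *TNFRSF8*, beside *TNFRSF1B*, had a log2 fold change of -1.10 from fewer than 0.4 CPM (adjusted p = 0.212). Of *CD70* and its neighbours, *TNFSF9* stood at 0.43 and *TNFSF14* was not tested.

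A list of 64 genes, here called signalling genes, covered signalling below the receptors, NF-κB response genes and the shedding of ligands and receptors. Of these, 63 were in the count table and 59 were tested. The called genes were 1 shedding gene, 2 NF-κB response genes and 1 ubiquitin gene, and no adaptor, kinase, death execution gene or NF-κB subunit or inhibitor was called. Of the 59, 4 were called lower (6.78%, beside 5.54% of all tested genes) and 0 were called higher by edgeR or DESeq2 (beside 2.9%), while 36 (61%) had an unadjusted edgeR p below 0.05 in either direction, beside 40.3% of all tested genes. Their median log2 fold change was -0.04. Those that fell were *TIMP3*, the inhibitor of the sheddase ADAM17 (-2.32, edgeR adjusted p = 1.98e-08), the NF-κB response genes *LIF* (-1.37, adjusted p = 2.76e-06) and *CCL2* (-0.99, adjusted p = 0.000115), and *TNFAIP3*, the A20 enzyme that restrains NF-κB (-0.82, adjusted p = 6.87e-05). *LIF*, a cytokine, measured 38.0 and 36.1 CPM in miControl against 13.0 and 15.6 CPM, and *CCL2*, a monocyte attractant, 15.0 and 15.9 against 8.56 and 7.03 CPM. *TNFAIP3* measured 44.3 and 45.3 against 24.6 and 26.3 CPM, and its call was lost with library totals, with glmTreat and without miR-6133-5p replicate 1. The call of *CCL2* was also lost with glmTreat.

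**Figure D4:**
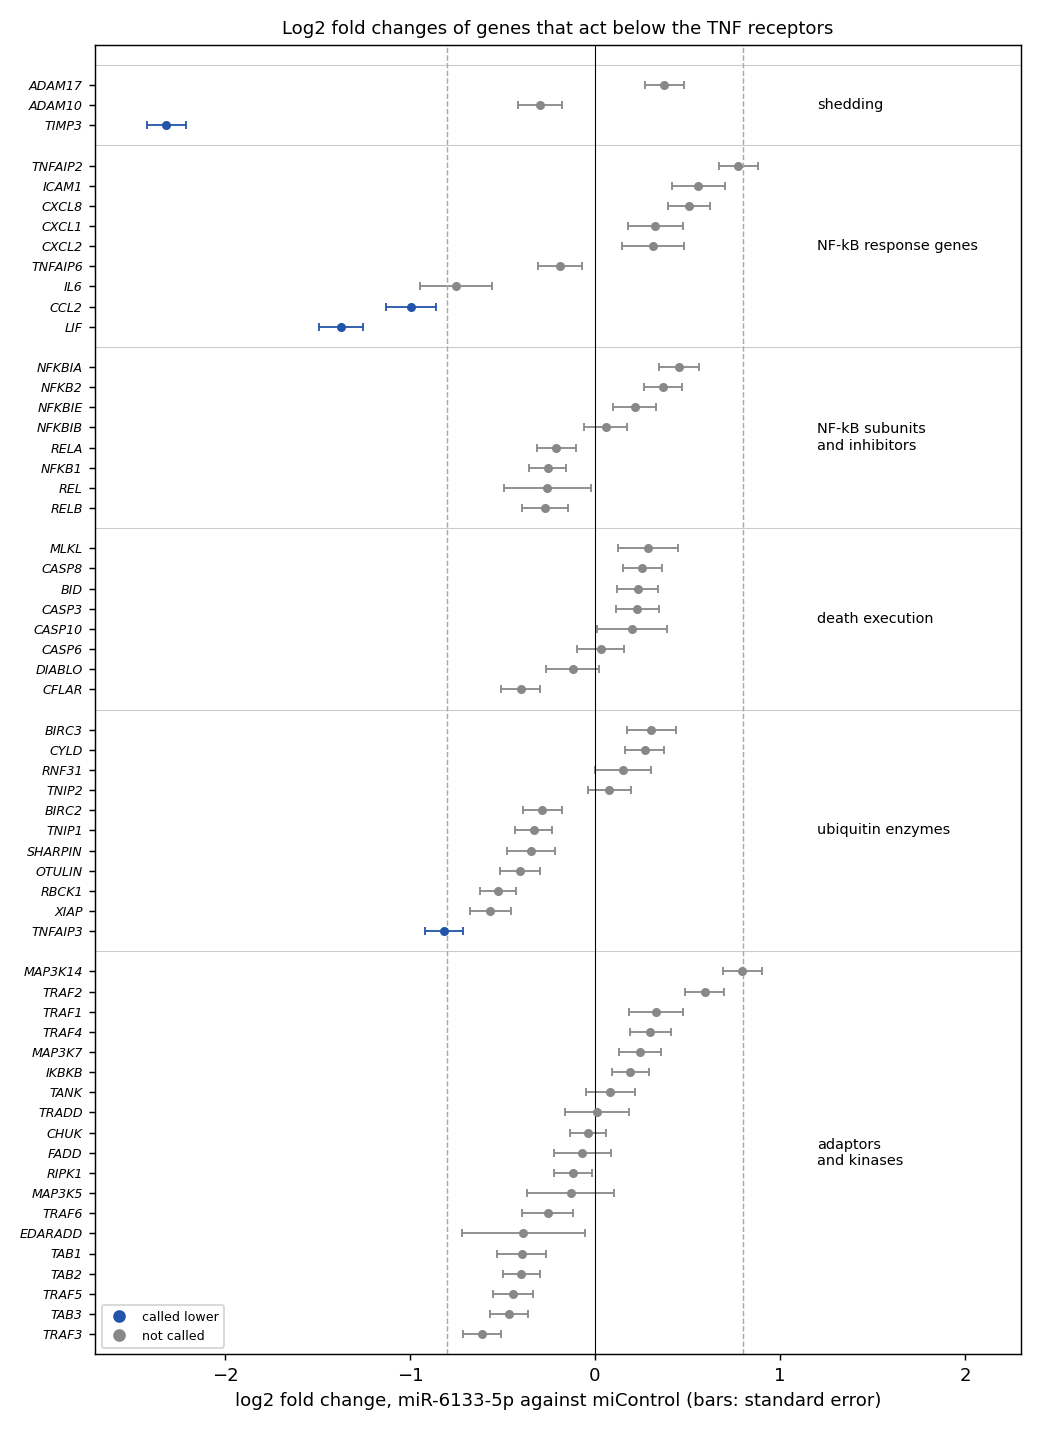
Log2 fold changes with standard errors for tested signalling genes, by function. They span signalling below the TNF receptors, NF-κB response genes and shedding. Dashed lines mark 0.8 in either direction. The 4 called genes, *TIMP3*, *LIF*, *CCL2* and *TNFAIP3*, lie below -0.8 and none lies above 0.8.

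Within the list, the adjusted p below 0.05 was reached by 15 genes that were lower (25.4%, beside 16.1% of all) and 9 that were higher (15.3%, beside 14.1%). Of the 11 genes of ubiquitin enzymes and associated proteins, 5 were lower and 0 higher at that level. The lower ones included *XIAP* (-0.57), a caspase inhibitor, *RBCK1* (-0.52), a subunit of the linear ubiquitin ligase, and *OTULIN* (-0.40), which removes linear chains. Of the 19 tested adaptors and kinases, 5 were lower and 2 higher. *TRAF3*, which holds the kinase encoded by *MAP3K14* in check, measured 71.3 and 74.9 CPM in miControl against 45.8 and 49.98 CPM (-0.61, edgeR adjusted p = 0.000602). *MAP3K14*, the kinase of the non-canonical NF-κB pathway, measured 37.7 and 35.5 against 59.9 and 67.2 CPM (0.80, adjusted p = 9.84e-05), just under the fold threshold, and it was called with library totals, with no filter on low counts, and without miControl replicate 1 or miR-6133-5p replicate 1. *TRAF2*, the adaptor bound by TNF receptor 2, was at 0.59 (adjusted p = 0.000893).

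The 9 tested NF-κB response genes were split, with 3 lower (33.3%) and 3 higher (33.3%) at an adjusted p below 0.05. Over all tested genes the shares at that level were 16.1% lower and 14.1% higher. *TNFAIP2* (0.77, called with library totals and without miControl replicate 1), the neutrophil attractant *CXCL8* (0.51) and the adhesion molecule *ICAM1* (0.56) were the higher ones, and *LIF*, *CCL2* and *IL6* (-0.75, called without miR-6133-5p replicate 1) the lower ones. Of the 8 NF-κB subunits and inhibitors, 0 were lower and 2 higher (25%) at that level, beside the same shares of all genes. Classes this small cannot be set apart from all genes by such counts. *NFKBIA*, the inhibitor that NF-κB itself induces, stood at 0.45 (edgeR adjusted p = 0.00600), and *NFKB2* at 0.37 (adjusted p = 0.0159). Of the 9 tested death execution genes, 1 was lower (11.1%) and 1 higher (11.1%) at an adjusted p below 0.05. These stood beside the same shares of all genes. The median log2 fold change of the class was 0.23, with 2 genes below 0 and 7 above. The lower one at that level was *CFLAR*, the inhibitor of caspase-8 (-0.40, edgeR adjusted p = 0.0101). *ADAM17*, the protease that sheds TNF and its receptors, stood at 0.38 (adjusted p = 0.0155). *IKBKG* was listed at 0 in every library, and a near-identical copy of this gene exists, so its value cannot be read.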

How the data were processed

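The authors deposited raw gene counts (whole numbers per Ensembl gene, not normalized) for 4 libraries from a stranded kit, sequenced with mates of 150 bases. Their processing notes name STAR 2.5.3a, featureCounts of Subread 1.6.4 and GRCh37. The strand setting and annotation release are not given in the sources used here. Libraries held 1.68 to 1.70 counts per uniquely mapped pair, so a fragment can give more than 1 count. Exon lengths, overlaps and positions were taken from GENCODE, lifted to GRCh37, and overlaps cover only genes that were counted.

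Low-count genes were removed with filterByExpr, counts were TMM-scaled, and 18252 genes were fitted without a replicate block (edgeR 4.0.16, glmQLFit, R 4.3.3). p-values were 2-sided and adjusted by Benjamini-Hochberg over all tested genes. The fit was tested on simulated data. Members, role lists, signalling genes and markers were chosen with earlier results of these data known. Full statistics are given for *TNFRSF19*, tested death-domain receptors and other members with an adjusted p below 0.05, log2 fold changes for other tested members, and counts for untested members. Signalling genes were named where called; those named below the fold threshold, and the 5 ratios, were chosen after their values were seen. Alternatives were RLE scaling, library totals, DESeq2 1.42.0, no filter, at least 10 counts in every library, a replicate block, glmTreat, an adjusted p of 0.05 and each library left out. Sequences came from RefSeq tables and were read with Python 3.11.15. FPKM values were not used here, and results for some single genes of the lists are not reported here.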

Additional observations from a re-analysis of the deposited data

How the results depend on the processing

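The 4 members called lower were also called under each alternative except glmTreat, which left 3 and lost *TNFRSF1B*. The count of members called higher went from 1 to 3 with library totals (*TNFRSF10A* and *TNFRSF21* added), and to 2 with no filter on low counts, with at least 10 counts in every library, with the replicate block and at an adjusted p of 0.05. It ran from 1 to 2 with a library left out. For death-domain receptors the count higher went from 0 to 2 with library totals, to 1 with each of those same 4 settings, and ran from 0 to 1 with a library left out. Signalling genes called lower went from 4 to 2 with glmTreat and to 3 with library totals, and without miR-6133-5p replicate 1 *IL6* replaced *TNFAIP3* among the 4. Those called higher went from 0 to 2 with library totals and to 1 with no filter, and ran from 0 to 2 with a library left out.

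Library totals turned the sign of *LTBR* (0.14), *TNFSF13* (0.10) and *TNFSF13B* (0.074). With a library left out, signs varied for *EDA* (-0.058 to 0.15), *EDA2R* (-0.34 to 0.37), *LTBR* (-0.16 to 0.084), *TNFRSF10C* (-0.89 to 0.30), *TNFSF13* (-0.24 to 0.10) and *TNFSF8* (-0.19 to 0.45), none of them called. Without miControl replicate 1 and replicate 2 in turn, *LTA* moved to -0.14 and -1.31, *TNFRSF14* to 0.39 and 1.33, and *TNFRSF8* to -0.60 and -1.52. Over all genes, library totals gave 709 lower and 977 higher calls against 1011 and 529 with TMM, and glmTreat gave 326 and 80. Apart from the construction of glmTreat, a stricter test, the cause of these shifts was not tested.

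The labels link same-numbered replicates by their number only. Over genes, the deviations of the replicate 1 libraries from their group means correlated at 0.049. In groups of 2 the replicate 2 deviations mirror these and add no second value. The replicate block gave 1130 lower and 642 higher calls, against 1011 and 529 without it. Where leaving out a library left a group with 1, that library was assumed to vary like the other group. At this depth, members with fewer than about 10 counts could not be compared.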
